A study of Mus musculus with 6 samples.

Results

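The plexins are the 9 genes Plxna1, Plxna2, Plxna3, Plxna4, Plxnb1, Plxnb2, Plxnb3, Plxnc1 and Plxnd1. They were taken by symbol from the 38924 genes counted, each matched 1 Ensembl identifier, and 8 of the 9 passed the low-count filter that left 13333 genes for testing. RNA came from cartilage of the anterior nasal septum of C57BL/6 mice at embryonic day 14.5, captured by laser from frozen sections. Wild-type (WT) mice, 3 in number, were compared with 3 mice of genotype Fgfr2+/S252W; EIIA-Cre, called Apert here, which carry a point mutation of the fibroblast growth factor receptor Fgfr2 on 1 allele as in human Apert syndrome. The EIIA promoter drives Cre in the early embryo, so the allele is not limited to cartilage, and the labels state no Cre for the WT mice. Each library is 1 animal, and the comparison asks what the mutation does to the transcripts of that cartilage. Where 3 values are listed for a group, they are its replicates 1 to 3 in order.

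Plexins are single-pass membrane receptors for semaphorins, the family of secreted and membrane-bound guidance cues first known for steering axons. An outer sema domain binds the ligand and an inner GTPase-activating domain switches off small GTPases of the Rap and Ras families, which loosens adhesion and changes the cytoskeleton. Class A plexins receive most class 3 semaphorins through a neuropilin co-receptor and class 6 semaphorins directly, class B plexins receive class 4 semaphorins, Plxnc1 receives Sema7a and Plxnd1 receives Sema3e. In the skeleton, semaphorins and plexins are known for guiding nerves and vessels and for signals between bone cells.

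Levels are given as CPM, the count of a gene scaled by the total count of its library. No plexin passed the test between the genotypes. The 2 smallest p values of the family belonged to class A members whose 3 Apert libraries all lay below the 3 WT libraries. Of all tested genes, 7.7% had their Apert libraries below their WT libraries in this way. Mean Plxna4 was 11.5 ± 2.86 CPM in WT against 5.56 ± 1.32 in Apert, and mean Plxna1 121 ± 11.8 against 86.5 ± 18.8 CPM (SD, n = 3 each). Plxna2 was the only tested plexin with a higher mean in Apert. After a correction for GC content the log2 fold change was -0.95 for Plxna4 and -0.22 for Plxna1, and those of Plxnb2 and Plxnd1 turned positive (0.16 and 0.25). In the same cartilage the semaphorin genes Sema3e and Sema3a, which encode ligands of Plxnd1 and of class A plexins, rose, although neither passed after a correction for GC content (edgeR adjusted p = 0.0635 and 0.183).

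Libraries held 6760510 to 10834744 counts, and 1 count was worth 0.0867 to 0.162 CPM after scaling. The mitochondrial genome took 28.8% to 30.2% of counts in WT and 34.3% to 40.4% in Apert, and 18687 to 18942 genes had at least 1 count in WT against 18245 to 18529 in Apert (two-sided exact permutation test, p = 0.1 for both, the smallest that 3 against 3 libraries can give). Fgfr2 was at 581 to 699.6 CPM in WT and 466 to 583 CPM in Apert, and a point mutation leaves its exons in place, so these values do not check the labels. All 12 chondrocyte markers were tested, and their summed level of 34062 to 44205 CPM in WT and 35766 to 38303 CPM in Apert came with Sox9, Col2a1 and Acan present in every library. None of the 12 was called, beside 0.45% of all genes, but 9 had negative log2 fold changes, beside 48.9% of all genes. Their median over the 12 was -0.20, near the plexin median of -0.22. After a correction for GC content these medians were -0.03 and -0.06. Sox9 was at 845, 797 and 637 CPM in WT and 618, 480.3 and 338 CPM in Apert (log2 fold change -0.67, edgeR adjusted p = 0.125). The part of these differences in the plexin values was not tested. Xist ran from 10834 to 13769 CPM and Ddx3y, Uty, Kdm5d and Eif2s3y had 0 counts in all 6 libraries, so the groups were alike in these genes when the X-linked members Plxna3 and Plxnb3 were compared.

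Plxnb2 and Plxna1 carried most of the plexin mRNA of WT cartilage. Levels were compared between genes per length, as CPM per kilobase of exon. On that scale Plxnb2 was at 16.7 ± 2.01 and Plxna1 at 13.4 ± 1.31, and together they made up 64.5% ± 4.01 of the family total (SD, n = 3). Plxnb1 followed at 6.21 ± 1.53, Plxna3 at 4.39 ± 0.629 and Plxna2 at 1.96 ± 0.00789 CPM per kilobase. Plxnd1 stood at 1.76 ± 0.247, Plxnc1 at 1.07 ± 0.104, Plxna4 at 1.02 ± 0.255 and Plxnb3 at 0.120 ± 0.0534 CPM per kilobase (SD, n = 3). In this order the WT ranges of Plxnb1 and Plxna3 overlapped, as did those of Plxna2 and Plxnd1 and those of Plxnc1 and Plxna4. Plxnb2 and Plxna1 were next to each other without overlap, but only just, with a lowest Plxnb2 library and a highest Plxna1 library that both round to 14.4. Among the 13333 tested genes the WT level per length of Plxnb2 was at percentile 85.8, of Plxna1 at 81.5, of Plxnb1 at 61.9 and of Plxna3 at 51.6, while Plxna2, Plxnd1, Plxnc1 and Plxna4 lay at percentiles 28.7, 25.9, 15.7 and 14.9.

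**Figure D1:**
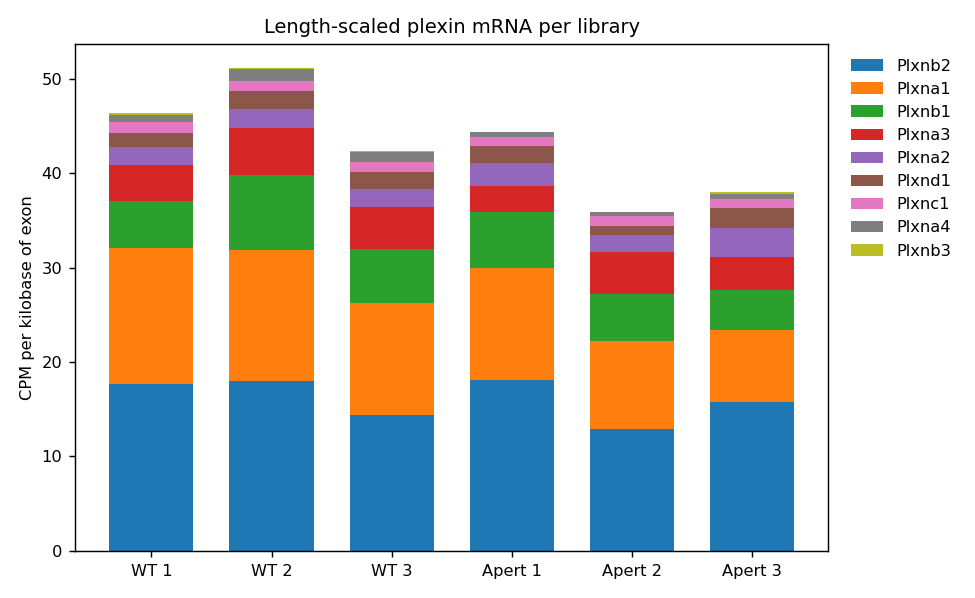
Stacked bars give the level of each plexin in each library, as CPM per kilobase of exon, with 3 WT libraries on the left and 3 Apert libraries on the right. Plxnb2 and Plxna1 form the 2 largest blocks of every bar, and the totals run from 35.9 to 51.1 CPM per kilobase.

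The order of all 9 genes was the same in Apert cartilage, from Plxnb2 at 15.6 ± 2.57 through Plxna1 at 9.58 ± 2.08 to Plxnd1 at 1.65 ± 0.577 CPM per kilobase (SD, n = 3). Plxna4, whose range overlapped that of Plxnc1 in WT, was at 0.495 ± 0.118 in Apert and there lay below every Plxnc1 library, which were at 0.886 to 1.04 CPM per kilobase. The family total per length was 46.4, 51.1 and 42.3 in WT and 44.3, 35.9 and 38.0 in Apert, and Apert replicate 1 lay within the WT range. Class A plexins took 44.6% ± 1.24 of that total in WT and 40.9% ± 2.88 in Apert, with libraries at 43.2% to 45.5% and 39.0% to 44.2%, again with overlap. Plxnb2 took 35.8% ± 2.10 in WT and 39.4% ± 2.87 in Apert (SD, n = 3 each).

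Among class A receptors, Plxna4 had the largest difference and the smallest p of the family. PLXNA4 is a receptor component for Sema3a, together with neuropilin-1, and for class 6 semaphorins. Plxna4 was at 8.41, 14.1 and 11.9 CPM in WT and at 5.95, 4.08 and 6.64 CPM in Apert. The groups did not overlap, although WT replicate 1 and Apert replicate 3 lay close together. The WT mean was 2.06-fold the Apert mean in the fitted model, with a log2 fold change of -1.04 (standard error 0.32), but the gene did not pass (edgeR quasi-likelihood, unadjusted p = 0.00468, adjusted p = 0.193). Its log2 fold change lay between -1.22 and -0.87 in every alternative fit, with adjusted p from 0.0999 to 0.547. These values rest on 97, 146 and 110 counts in WT and 60, 30 and 41 counts in Apert. Plxna4 (ENSMUSG00000029765, mm10 chromosome 6, 32145926 to 32588192, minus strand) has 110 exon bases in common with the antisense gene Plxna4os3, which had 0 counts in 5 libraries and 1 count in WT replicate 2.

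Summed markers of glia were also lower in the Apert libraries. Of 10 Schwann and olfactory glia markers 8 were tested and none was called, beside 0.45% of all genes. All 8 had negative log2 fold changes, beside 48.9% of all genes. Their median was -0.36, and -0.27 after GC correction. The summed level of the 10 markers was 371 to 443 CPM in WT and 279.7 to 332 CPM in Apert, without overlap. Sox10, a transcription factor of neural crest cells and glia, was at 115 to 160.2 CPM in WT and 76.3 to 105 CPM in Apert, and Foxd3 had 0 counts in every library. In bulk samples, fewer cells of a type and less RNA per cell cannot be told apart, and the part of glial cells in the Plxna4 values was not tested. Among markers of neurons, the cells in which Plxna4 is best known, Tubb3 had 0 counts in 5 libraries and no library exceeded 0.595 CPM for Stmn2, while Map2 was at 35.1 to 88.96 CPM and Gap43 at 1.91 to 10.3 CPM. Of 12 neuron markers 4 were tested and none was called, beside 0.45% of all genes. Of these 4, 3 had positive log2 fold changes and 1 negative, with a median of 0.55, and 0.60 after GC correction. The summed level of the 12, mostly Map2, was 42.6 to 66.9 CPM in WT and 53.6 to 103.5 CPM in Apert.

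Plxna1, a receptor component for class 3 semaphorins with the neuropilins and for Sema6d, was the most abundant class A member. Its level was 129.8, 125 and 107.3 CPM in WT and 106.7, 83.3 and 69.5 CPM in Apert. The highest Apert library thus lay just under the lowest WT library. The log2 fold change was -0.48 (standard error 0.17), a WT mean 1.39-fold the Apert mean, and did not pass (edgeR, unadjusted p = 0.0108, adjusted p = 0.265). Without Apert replicate 1 it was -0.69 and passed (adjusted p = 0.0413), and with correction for GC content it was -0.22 (standard error 0.17, adjusted p = 0.827). Adjusted p over all alternative fits ran between those 2 values. Plxna1 (ENSMUSG00000030084, mm10 chromosome 6, 89316316 to 89362613, minus strand) shares 970 exon bases, 10.7% of its exon length, with the opposite-strand gene Gm26811, so its count is partly uncertain. Gm26811 itself had 19 to 27 counts in WT and 2 to 14 in Apert.

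Plxna2, a receptor for Sema6a and Sema6b and for class 3 semaphorins with neuropilins, had the only positive estimate of the family before GC correction. Values were 29.5, 29.7 and 29.7 CPM in WT and 36.5, 26.9 and 45.05 CPM in Apert. WT libraries were almost equal, while Apert replicate 2 lay under all of them and the other Apert libraries above. The log2 fold change was 0.29 (standard error 0.20, adjusted p = 0.647), and it was 0.10 without Apert replicate 3 and 0.45 without Apert replicate 2. Plxna3, the X-linked class A member and a receptor for Sema3f with neuropilin-2, was at 29.8, 39.7 and 34.3 CPM in WT and 22.0, 35.4 and 27.9 CPM in Apert. Its groups overlapped in the upper Apert library, and the log2 fold change of -0.29 (standard error 0.21) did not pass (adjusted p = 0.656) and was -0.10 after GC correction.

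**Figure D2:**
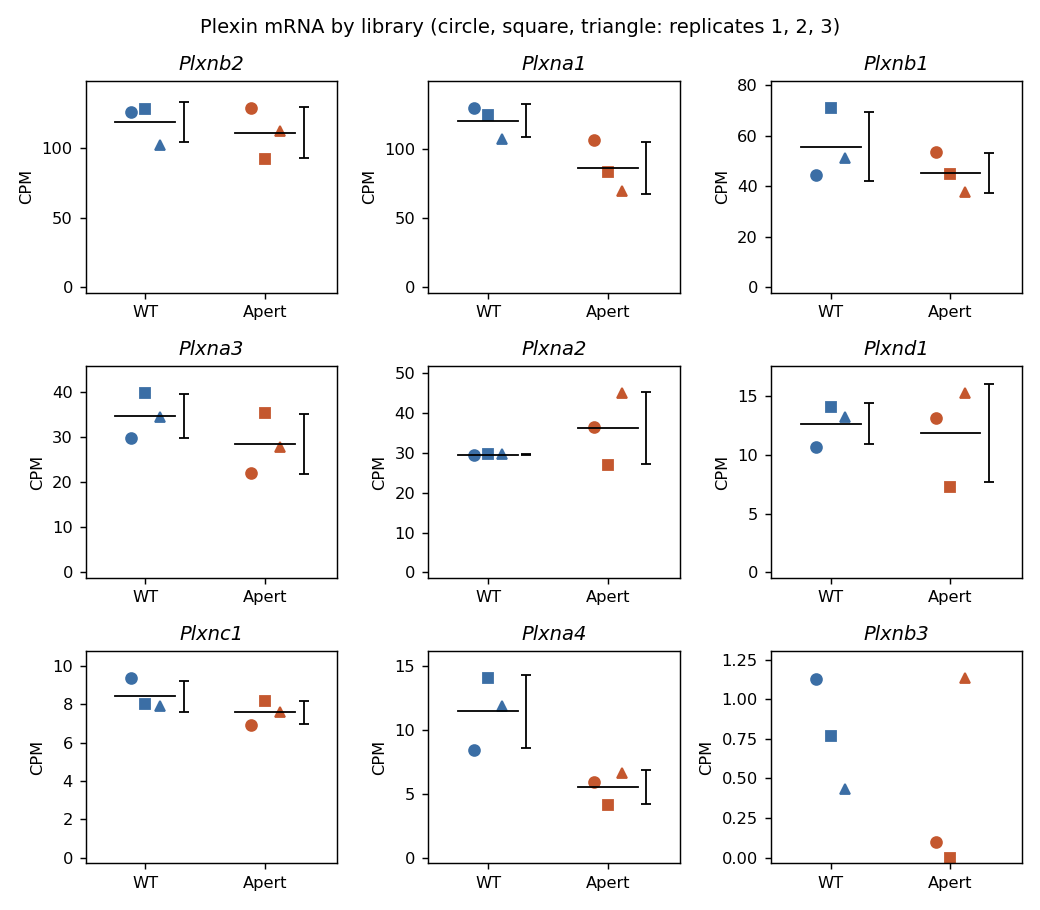
Each panel shows 1 plexin in order of its WT level per length, with CPM on the vertical axis from 0 and 1 point per library. Horizontal lines are group means and bars their SD over 3 libraries, left out for Plxnb3, whose counts are near the floor. Apert points lie below all WT points for Plxna1 and Plxna4 and overlap them in the other panels.

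Class B receptors, which bind class 4 semaphorins and through their C-terminus recruit guanine nucleotide exchange factors of the small GTPase RhoA, overlapped between the genotypes. Plxnb2, a receptor for Sema4c and the plexin with the highest level per length, was at 126, 128 and 102 CPM in WT and 129, 92.3 and 112 CPM in Apert. The highest and the lowest of these 6 libraries were both Apert. The log2 fold change was -0.10 (standard error 0.16, adjusted p = 0.866), and it turned to 0.16 (standard error 0.16) after GC correction and to 0.01 without Apert replicate 2. Plxnb1, a receptor for Sema4d, was at 44.5, 70.9 and 51.3 CPM in WT and 53.3, 44.6 and 37.6 CPM in Apert. WT replicate 2 stood above the other 5 libraries, and without it the log2 fold change went from -0.29 (standard error 0.20, adjusted p = 0.619) to -0.08. After GC correction it was -0.02. Plxnb1 shares 210 exon bases, 2.35% of its length, with the opposite-strand gene Gm7628.

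Plxnb3, the X-linked class B member and a receptor for Sema5a, was close to the detection floor. It had 13, 8 and 4 counts in WT and 1, 0 and 7 counts in Apert. In Apert replicate 2, a count of 0 allows up to 3 counts or 0.408 CPM, by counting error only. The gene did not pass the low-count filter and no fold change is given.

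Plxna1 and Plxnb2 had like transcript GC contents, 57.3% for both, and their ratio within a library does not depend on the scaling of that library. The log2 ratio of Plxna1 to Plxnb2 CPM was 0.04, -0.04 and 0.07 in WT and -0.27, -0.15 and -0.69 in Apert. The ratio thus lay near 0 in each WT library and lower in each Apert library. This ratio was chosen after the values were seen and carries no test. In the fit without GC correction the log2 fold changes were -0.48 for Plxna1 and -0.10 for Plxnb2, and with it -0.22 and 0.16. The part of GC content in the ratio was not tested, nor that of the 10.7% of Plxna1 exon length shared with Gm26811.

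Plxnc1, a receptor for Sema7a best known in neurons and leukocytes, showed little difference. It was at 9.36, 8.0 and 7.90 CPM in WT and 6.94, 8.17 and 7.62 CPM in Apert, and the difference was -0.16 on the log2 scale (standard error 0.30, adjusted p = 0.889). Its ligand gene Sema7a had 2 counts in WT replicate 1 and 0 counts in the other 5 libraries. Of 10 macrophage and leukocyte markers 2 were tested and neither was called, beside 0.45% of all genes. The summed level of the 10 was 5.03 to 10.8 CPM in WT and 5.16 to 15.0 CPM in Apert. The tested marker Cd68 was at 3.29 to 5.49 CPM in WT and 3.87 to 11.3 CPM in Apert (log2 fold change 0.88, edgeR adjusted p = 0.438). Csf1r, also tested, had a log2 fold change of 0.17 (edgeR adjusted p = 0.972). The leukocyte marker Ptprc, not tested, ran from 0 to 1.41 CPM.

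Plxnd1, the receptor for Sema3e that is best known in endothelium, was at 10.7, 14.1 and 13.2 CPM in WT and 13.1, 7.21 and 15.2 CPM in Apert. Apert replicate 2 lay under all others and Apert replicate 3 above. The log2 fold change was -0.09 (standard error 0.29, adjusted p = 0.938), became 0.25 (standard error 0.29) after GC correction, and turned to 0.15 without Apert replicate 2. Endothelial markers summed to 2.86 to 9.06 CPM in WT and 3.67 to 5.02 CPM in Apert. Of 10 such markers 2 were tested, and Cdh5 ran from 0 to 0.810 CPM and Tie1 had 0 counts in 5 libraries.

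Across the family, none of the 8 tested plexins was called by the edgeR quasi-likelihood test at an adjusted p below 0.05, where 0.45% of all 13333 genes were called, 0.0525% with a lower level in Apert. With the GC correction 0 of 8 plexins and 0.0375% of all genes were called. DESeq2 called none of the 6 plexins for which it gave an adjusted p, and limma-voom none of 8. Without adjustment 2 of 8 plexins had an edgeR p below 0.05, both lower in Apert, beside 11.4% of all genes in either direction and 5.01% in that one. In 2 of 8 the groups did not overlap, both with the Apert libraries lower, beside 16.6% of all genes in either direction and 7.7% in that one. Negative log2 fold changes were found in 7 of 8 plexins and in 48.9% of all genes. The median was -0.22 in the plexins and 0.01 in all tested genes.

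**Figure D3:**
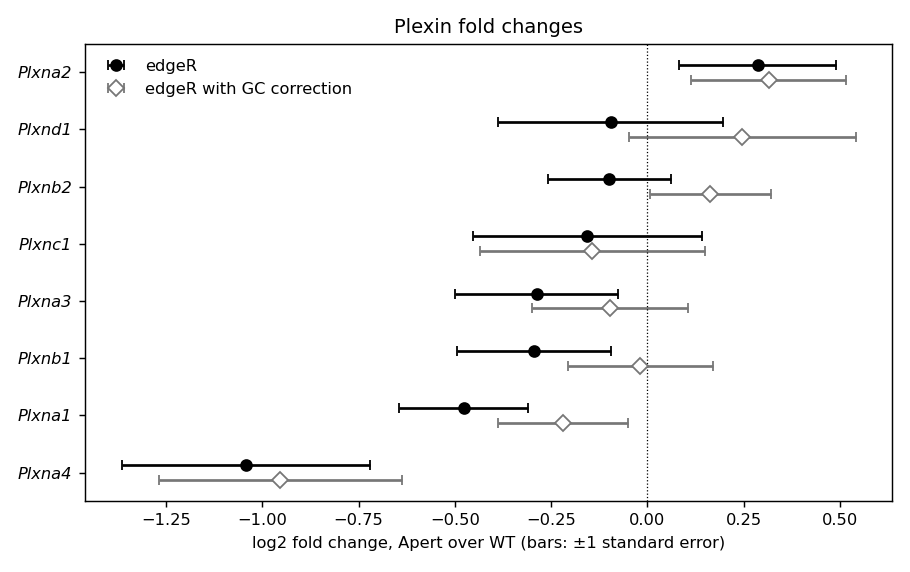
Points give the log2 fold change of Apert over WT for the 8 tested plexins, with bars of 1 standard error. Filled circles are the edgeR fit and open diamonds the same fit with a correction for transcript GC content. Plxna4 has the lowest value in both, at -1.04 and -0.95, while Plxnb2 and Plxnd1 move from below to above 0.

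GC content moved with the fold changes of all genes, so it stands beside the plexin values. Genes whose longest transcript had 45% to 50% GC had a median log2 fold change of 0.04, those with 50% to 55% a median of -0.10, those with 55% to 60% a median of -0.26, and those with 60% or more a median of -0.32. Of the 8 tested plexins 5 had a GC content of at least 55%, from Plxna3 at 55.05% to Plxnd1 at 60.8%. Plxna2 and Plxnc1 were in the class of 45% to 50% and Plxna4, with 51.6%, in that of 50% to 55%. After a GC correction of each library the median of the 8 plexins was -0.06. Plxna4 kept a log2 fold change of -0.95 (standard error 0.32, edgeR unadjusted p = 0.00781, adjusted p = 0.371), and the others lay between -0.22 and 0.31.

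**Figure D4:**
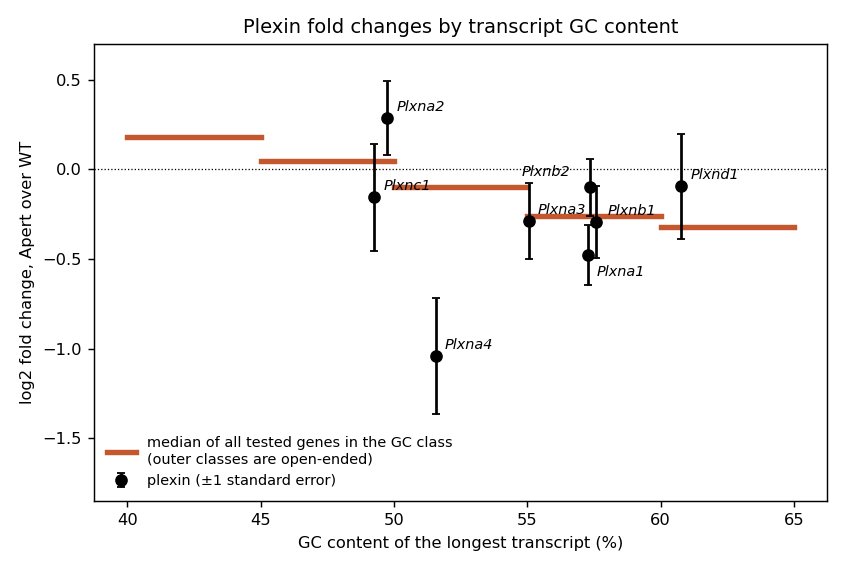
Black points show the 8 tested plexins, with transcript GC content in percent on the horizontal axis and the log2 fold change of Apert over WT with 1 standard error on the vertical axis. Coloured lines are medians of all tested genes in 5 GC classes, from 0.18 below 45% to -0.32 at 60% or more. In the class of 55% to 60%, with a line at -0.26, Plxna1 lies below at -0.48 and Plxnb2 above at -0.10, and Plxna4 lies below the -0.10 of its own class.

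Among the ligands of the plexins, Sema3e and Sema3a rose in Apert cartilage. Of 20 semaphorin genes 16 were tested, 2 rose, none fell and 14 did not pass, with a median log2 fold change of -0.01. Beside this, 0.398% of all genes rose. Sema3e, the ligand of Plxnd1, was at 6.41, 12.05 and 9.09 CPM in WT and 23.6, 30.8 and 26.1 CPM in Apert (log2 fold change 1.55, standard error 0.26, edgeR adjusted p = 0.0122, and 0.0635 after GC correction). Sema3a, a ligand for neuropilin-1 with Plxna1 or Plxna4, was at 24.8, 28.4 and 35.8 CPM in WT and 45.1, 56.9 and 105 CPM in Apert (log2 fold change 1.22, standard error 0.26, edgeR adjusted p = 0.0405, and 0.183 after GC correction). Apert replicate 3 was the highest library, and without it the log2 fold change of Sema3a was 0.77 (adjusted p = 0.256). Sema3a did not pass when any library other than Apert replicate 1 was left out (adjusted p = 0.109 to 0.256). Nor did Sema3a pass with upper quartile factors or with library totals alone (edgeR adjusted p = 0.0524 and 0.0668). Sema3e ran from 1.34 to 1.79 over the alternative fits and did not pass without WT replicate 1, WT replicate 3, Apert replicate 2 or Apert replicate 3 (adjusted p = 0.0588 to 0.136).

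By edgeR the remaining ligands did not pass. Sema5b, of the class with thrombospondin repeats, was at 1.95 to 2.77 CPM in WT and 5.19 to 11.3 CPM in Apert without overlap (log2 fold change 1.84, edgeR adjusted p = 0.063), and it passed without Apert replicate 1 (adjusted p = 0.0454) and with no low-count filter (adjusted p = 0.00619). Sema3c, a ligand for both neuropilins and for Plxnd1, was at 117 to 154 and 192 to 214 CPM (0.53, edgeR adjusted p = 0.138), and DESeq2 called it (adjusted p = 0.0344). After GC correction the log2 fold change of Sema3c was 0.37 (edgeR adjusted p = 0.498). Sema6a, a ligand of Plxna2 and Plxna4, had the highest WT level per length of the listed semaphorins, 42.4 CPM per kilobase, and was at 286 to 478 CPM in WT and 328 to 476 CPM in Apert, and its groups overlapped (0.11, adjusted p = 0.858). Sema6d, a ligand of Plxna1, was at 44.05 to 52.6 and 32.1 to 48.8 CPM (-0.30, adjusted p = 0.586). The ligand genes Sema4c, Sema4d and Sema3f did not exceed 10.02 CPM in any library. Sema4c, of the Plxnb2 route, was at 4.25 to 10.0 CPM in WT and 2.76 to 4.76 CPM in Apert, Sema4d, of the Plxnb1 route, at 1.99 to 4.55 and 3.07 to 3.54 CPM, and Sema3f, of the Plxna3 route, at 4.72 to 7.02 and 1.497 to 5.85 CPM.

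**Figure D5:**
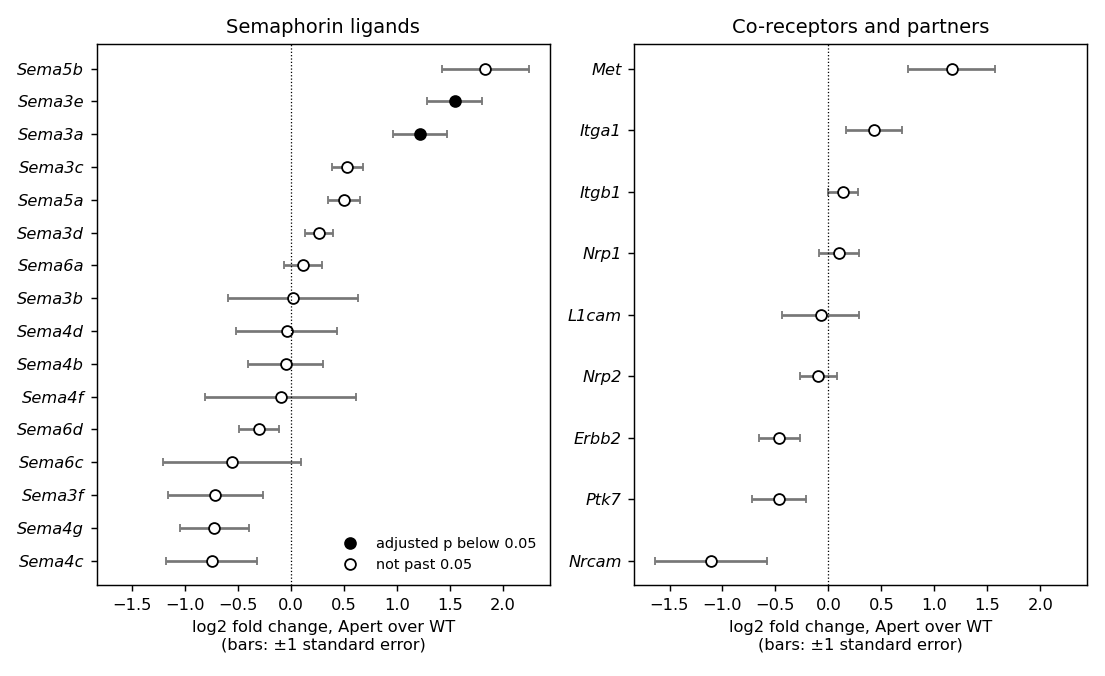
The log2 fold change of Apert over WT is shown for 16 tested semaphorins on the left and 9 tested co-receptors and partners on the right, with bars of 1 standard error. Filled points passed an adjusted p of 0.05, which only Sema3e and Sema3a did, and Nrp1 and Nrp2 sit near 0.

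Co-receptors of the plexins overlapped between the genotypes. Of 12 co-receptor and partner genes 9 were tested and edgeR called none, beside 0.45% of all genes, with a median of -0.07. In 2 the unadjusted edgeR p was below 0.05, beside 11.4% of all genes. The limma-voom fit called none of 9, and DESeq2 none of the 6 for which it gave an adjusted p. Nrp1, which binds Sema3a, was at 28.8, 31.8 and 30.3 CPM in WT and 28.2, 36.7 and 32.4 CPM in Apert (log2 fold change 0.10, standard error 0.19, adjusted p = 0.891), and its sign turned after GC correction (-0.09), with library totals alone (-0.06) and without Apert replicate 2 (-0.01). Nrp2, which binds Sema3f, was at 77.0, 67.1 and 69.3 CPM in WT and 53.2, 65.3 and 81.5 CPM in Apert (-0.10, standard error 0.17, adjusted p = 0.881), and its sign turned without Apert replicate 1 (0.01). Met, the hepatocyte growth factor receptor that can pair with class B plexins, was at 3.12 to 7.90 and 6.35 to 21.2 CPM (1.16, adjusted p = 0.268) and passed without Apert replicate 1 (adjusted p = 0.043). Erbb2, another class B partner, was at 40.9 to 67.1 and 37.8 to 42.7 CPM (-0.47, adjusted p = 0.367, and -0.20 after GC correction). Nrcam, an adhesion molecule of neuropilin complexes, was at 2.27 to 6.46 and 1.59 to 2.45 CPM (-1.11, adjusted p = 0.444), and Ptk7 had a log2 fold change of -0.47 (adjusted p = 0.515).

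Inside the cell, 1 of 36 tested effector genes passed of 42 listed, beside 0.45% of all genes, and it rose. Rap1a, which encodes a Rap GTPase, the substrate class of the plexin GTPase-activating domain, went from 131, 133 and 122 CPM in WT to 225, 224 and 196 CPM in Apert (log2 fold change 0.74, standard error 0.14, edgeR adjusted p = 0.0235). After GC correction it was 0.49 (adjusted p = 0.278), and Rap1a transcripts have 38.8% GC. Rap1a passed without Apert replicate 1 but not when any other library was left out (adjusted p = 0.0566 to 0.195). With library totals alone Rap1a did not pass either (edgeR adjusted p = 0.0777). By edgeR the other 35 did not pass, and 13 of the 36 had positive and 23 negative log2 fold changes, beside 48.9% negative among all genes. The median was -0.11, and -0.04 after GC correction. Rock1 and Rock2, the RhoA-dependent kinases, were higher in every Apert library (0.63 and 0.54, edgeR adjusted p = 0.0865 and 0.0884), and DESeq2 called both (adjusted p = 0.0113 and 0.00911). After GC correction Rock1 and Rock2 were at 0.42 and 0.35 (edgeR adjusted p = 0.412 and 0.490), and their transcripts have 40.2% and 41.4% GC. Groups did not overlap in 3 genes with higher and 8 with lower Apert libraries, beside 8.92% and 7.7% of all genes.

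Dpysl5, of the collapsin response mediator proteins that carry Sema3a signals to microtubules, was at 10.9, 14.2 and 11.4 CPM in WT and 6.84, 5.58 and 6.81 CPM in Apert (log2 fold change -0.92, standard error 0.29, edgeR adjusted p = 0.200). Arhgef11 and Arhgef12, the exchange factors that bind class B plexins, had log2 fold changes of -0.38 and -0.19 (adjusted p = 0.426 and 0.656), and Arhgef11 shares 12.5% of its exon length with the opposite-strand gene Lrrc71. Farp2, an exchange factor that binds class A plexins, was at -0.28 (adjusted p = 0.612), and Dpysl2 at -0.43 (adjusted p = 0.397). In each of these 5 genes the Apert libraries lay below the WT libraries and none passed, and 4 of the 5 were picked after their values were seen. After GC correction the log2 fold changes of Dpysl5, Arhgef11, Arhgef12, Farp2 and Dpysl2 were -0.68, -0.25, -0.17, -0.21 and -0.44. The groups overlapped in Dpysl3 (-0.83) and Dpysl4 (-0.08), and neither passed (edgeR adjusted p = 0.477 and 0.956).

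Summed markers of the cells around cartilage were higher in the Apert libraries. Of 12 perichondrium and fibrous mesenchyme markers 11 were tested, 2 rose and none fell, beside 0.398% and 0.0525% of all genes. The 2 were Col3a1 and Ogn (edgeR adjusted p = 0.0322 and 0.0363). The median log2 fold change of the 11 was 0.60, and 0.39 after GC correction. The summed level of the 12 markers was 2312 to 2673 CPM in WT and 3249 to 3539 CPM in Apert. Epithelial markers summed to at most 3.40 CPM in any library and none of 10 was tested, while skeletal muscle markers summed to 5.11 to 11.9 CPM with Myod1 and Myog at 0 counts in all libraries. Erythroid markers summed to 52.0 to 94.0 CPM in WT and 59.3 to 75.5 CPM in Apert. The part of the perichondrium in the plexin values was not tested.

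For the plexin with the highest WT level per length and the plexin with the smallest p, the genes most alike across the 6 libraries were found by the root-mean-square difference of log2 CPM around each gene's mean. Closest to Plxnb2 were Tmem161a (0.0530), Amer1 (0.0553) and the fibrillar collagen gene Col5a1 (0.0591), with log2 fold changes of -0.14, -0.11 and -0.11. For Plxna4 the closest were Begain (0.142), the ganglioside synthase gene St8sia1 (0.165) and the annotated hairpin locus Mir7669 (0.168), with log2 fold changes of -1.02, -1.09 and -0.82. Like Plxna4, these 3 did not pass (edgeR adjusted p = 0.595, 0.0850 and 0.324), and St8sia1 was at 15.1, 26.3 and 25.3 CPM in WT and 12.1, 8.85 and 10.2 CPM in Apert. Begain was low, at 1.13, 2.02 and 1.84 CPM in WT and 0.793, 0.680 and 0.972 CPM in Apert, and its log2 fold change had a standard error of 0.66. Fragments counted at Mir7669 may belong to a longer transcript around the hairpin, so that value is uncertain. Predicted genes with Gm or Rik symbols and genes without a symbol were passed over. The named genes are the nearest of the rest of the 13333 tested genes over 6 libraries and carry no test.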

How the data were processed

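RNA-seq libraries of 6 embryos were analysed, 1 per animal. Per the labels' protocols, 15 ng of RNA was amplified with the NuGEN Ovation system and tagged with Nextera XT before paired 100 bp sequencing, which can distort transcripts by GC content. The deposited values are whole-number fragment counts. To obtain them the authors ran featureCounts 1.4.4 over Ensembl release 75 exons without strand, per the file headers. Per the submitters' processing notes, cutadapt, STAR 2.5.2b and mm10 were used. Symbols came from a table of gene identifiers (37607 of 38924 matched) and GC content from the longest GENCODE M21 transcript (13192 of 13333 tested genes). Fragments over exons of more than 1 gene cannot be assigned to 1 of them.

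Counts were fitted in R 4.3.3 with edgeR 4.0.16: filterByExpr, trimmed mean of M values scaling, and the quasi-likelihood F test with Benjamini-Hochberg adjustment over all tested genes at 0.05. CPM use scaled totals, and the standard error is the size of the log2 fold change over the square root of F. The GC correction enters a smooth curve per library (mgcv 1.9.3, prior count 2) as an offset. DESeq2 1.42.0 and limma 3.58.1 (voom) were alternatives. Only the main edgeR fit was run on simulated counts. There it recovered 64% of 2-fold and 97% of 4-fold changes, and 6.94% of its calls were false. Changes were placed in 100 genes per fold, all above a minimum level, so these shares do not cover genes below it. The simulated counts held no GC difference between the groups. The members, lists and tests were chosen with earlier results of these data known. Named were all plexins, pathway genes that passed, up to 4 per list with the smallest p, and Nrp1, Nrp2 and 8 ligands of known pairing. Arhgef11, Arhgef12, Farp2, Dpysl2, Dpysl3, Dpysl4 and the marker genes were named after their values were seen. Labels do not say that replicate numbers mark shared litters. No molecular identifiers are described, so limits cover counting error only.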

Additional observations from a re-analysis of the deposited data

How the results depend on the processing

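Under 19 alternatives no plexin was called, except that without Apert replicate 1 there was 1, Plxna1 (-0.69, adjusted p = 0.0413), so leaving out 1 library at a time gave 0 to 1. Direction turned for Plxnb2 with the GC offset (0.16), with the replicate block and GC offset together (0.15) and without Apert replicate 2 (0.010), and for Plxnd1 under the same fits (0.25, 0.20 and 0.15). Leaving out 1 library at a time, Plxnb2 ran from -0.25 to 0.010 and Plxnd1 from -0.31 to 0.15. The other 6 tested plexins kept their direction throughout. DESeq2 gave no adjusted p for Plxna4 and Plxnc1. The median plexin log2 fold change was -0.058 with the GC offset, -0.37 with library totals alone, where the median of all genes was -0.14 in place of 0.01, and -0.29 to -0.13 with each library left out. The 60 genes called became 247 with no low-count filter, 223 with DESeq2, 172 with the replicate block, 5 with the GC offset and 0 to 229 with each library left out (0 without WT replicate 3, where 1376 had an unadjusted p below 0.05). With library totals alone 17 genes were higher and 24 lower, against 53 and 7. Of the ligand, co-receptor and effector genes 3 were called, 6 with no filter, DESeq2 or the replicate block, 1 with library totals alone, 0 with the GC offset, and 0 to 6 with each library left out. Same-numbered libraries did not all deviate together (correlations 0.19, 0.02 and 0.09 across genes, and number 2 was not its own best match), so the replicate block is a hint from the data and not the design; it changed no plexin call. Depth limits Plxnb3 (0 to 13 counts) and the precision of Plxna4 (30 to 146 counts).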
